A study of Mus musculus with 11 samples.

Results

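The genes described here encode 3 groups of enzymes that attach a polar group to drugs, bile pigment, steroids and other fat-soluble molecules: UDP-glucuronosyltransferases (Ugt), glutathione transferases (Gst, with the microsomal Mgst) and sulfotransferases (Sult). They were taken by gene symbol, as every row of the expression table named Ugt1 to Ugt3, Gsta, Gstk, Gstm, Gsto, Gstp, Gstt, Gstz, Mgst1 to Mgst3, Sult1, Sult3, Sult4 or Sult5 with a member number. This gave 55 of 31280 genes, of which 20 were Ugt, 25 were Gst or Mgst and 10 were Sult genes.

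Liver RNA came from wild-type C57BL/6 mice on a diet lacking methionine and choline (MCD), which was fed for 8 weeks and serves as a model of fatty liver with inflammation. The MCD group was given water by gavage and has 5 libraries. The limonin group received limonin, a triterpenoid that makes citrus juice bitter, by gavage for 4 weeks at a dose of 100 mg/kg, and has 6 libraries. All 11 livers were therefore from MCD-fed mice, no liver from a complete diet was analysed here, and age and sex are not given in the labels. The labels number the replicates and do not say which animal each came from. The p-values therefore measure the spread between these libraries, which may in part be technical.

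Conjugation is the second step of detoxification in the liver. Glucuronosyltransferases sit in the endoplasmic reticulum and move glucuronic acid from UDP-glucuronate onto bilirubin, steroids, bile acids and drugs. Glutathione transferases couple reactive molecules to the tripeptide glutathione, and their classes (alpha, kappa, mu, omega, pi, theta, zeta and the microsomal forms) differ in the molecules they accept. Sulfotransferases take sulfate from the activated carrier PAPS. The conjugates leave the hepatocyte through export pumps into bile or blood. The classical inducers of these genes act through the transcription factors NRF2, CAR, PXR, AHR and PPARα, and hepatocyte factors such as HNF4α drive their expression in the liver.

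Values are FPKM, that is, fragments scaled to transcript length and library depth, so they can be set side by side between genes. Differences were tested with limma on log2(FPKM + 1) over the 10489 genes that reached 1 FPKM in at least 5 libraries. They are given as log2 fold changes, limonin minus MCD, with the standard error (SE) and a p-value adjusted by Benjamini-Hochberg over all those genes. A gene is called at an adjusted p under 0.05. On this scale the change of genes near 1 FPKM is understated.

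Of the 55 genes, 44 passed the filter on low values, 18 rose with limonin, 1 fell and 25 were not called. Over all tested genes 25.9% were called, 7.24% higher and 18.7% lower. A positive log2 fold change was found in 31 of the 44 and a negative one in 13, against 41.1% positive over all tested genes, and the median was 0.31 against -0.07. In 9 members every limonin library lay above every MCD library, and in 0 every limonin library lay below, while over all tested genes these patterns made up 2.97% and 8.33%. The rises were not spread evenly over the 3 groups of enzymes: 11 of 17 tested Ugt genes rose (median 0.67), 6 of 22 tested Gst genes rose and 1 fell (median -0.04), and 1 of 5 tested Sult genes rose (median 0.32). The difference between these groups of genes was not tested. Leaving out each library in turn gave 14 to 19 genes called higher, and 13 of the 19 called genes were called in all 11 of those fits. With no filter on low values 12 were called higher, the calls of Ugt2b1, Ugt2b37, Ugt2a3, Gsta3, Gsto1 and Sult1a1 being lost.

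The 11 members under the filter were Gsto2, Gstt4, Mgst2, Sult1c1, Sult3a1, Sult3a2, Sult4a1, Sult5a1, Ugt1a8, Ugt1a10 and Ugt2a1. Ugt1a8, Ugt2a1 and Sult3a2 were listed at 0 in all 5 MCD libraries, and none of the 3 exceeded 0.0399 FPKM in a limonin library. Gstt4, a theta class gene, was at 0 to 0.419 FPKM in the MCD libraries and at 0.0713 to 1.61 in the limonin libraries. Ugt1a10 was at 0 to 0.525 FPKM and 0.318 to 4.18 in the same order, and in both genes 4 of 6 limonin libraries lay above every MCD library. Sult4a1 was at 0.924 to 1.42 FPKM in MCD and 0.0228 to 1.04 in limonin, and 5 of 6 limonin values were under the lowest MCD value. Mgst2 was at 0.190 to 0.399 and 0.0710 to 0.302 FPKM, and 4 of 6 were under it. The groups overlapped in each of these 4 genes, and none of the 4 was tested. Gsto2 was at 0.125 to 0.321 FPKM in MCD and 0.204 to 0.792 in limonin, also with overlap and not tested here. In the authors' deposited table Gsto2, Gstt4 and Ugt1a10 were higher in limonin. Their q-values, from a test that is not stated, were 0.00848, 0.00956 and 0.0179. Those of Sult4a1 and Mgst2 were 0.267 and 0.363.

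**Figure D1:**
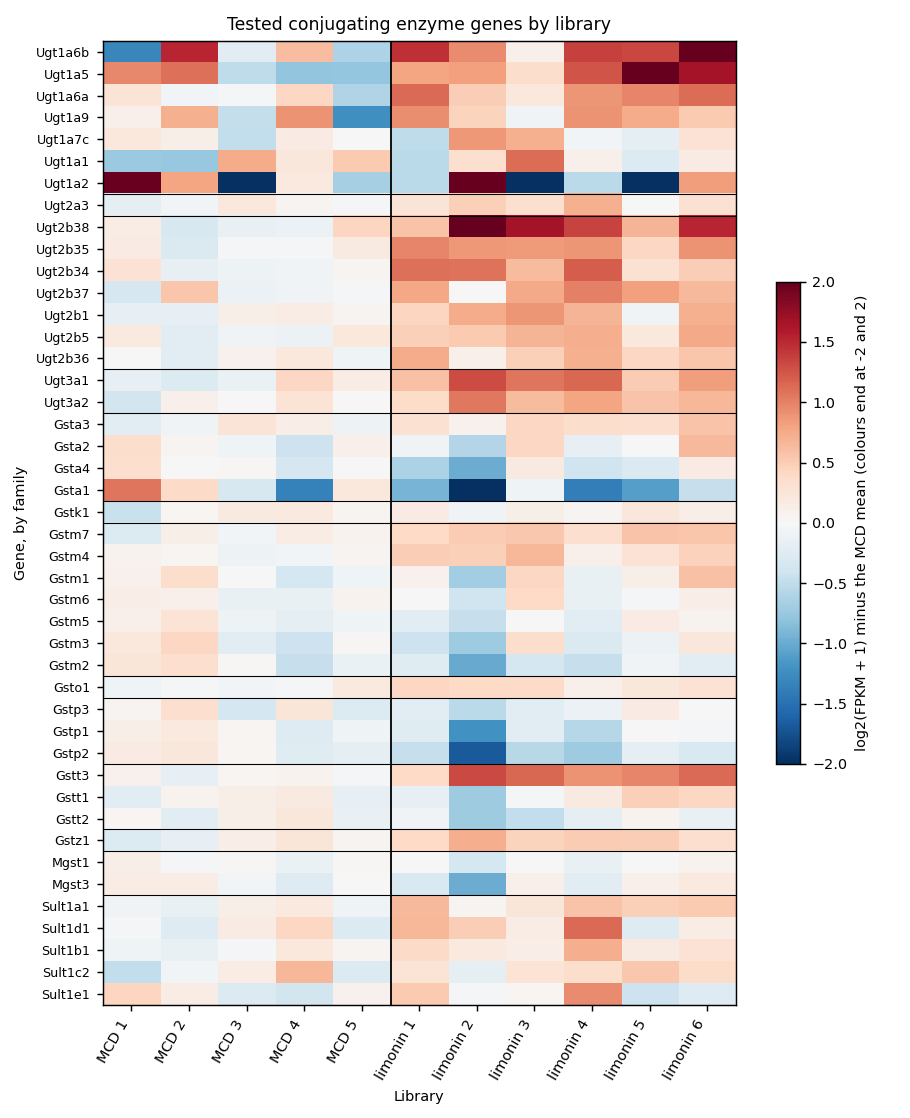
Each row is 1 of the 44 tested genes and each column 1 library, and the colour gives log2(FPKM + 1) minus the mean of the 5 MCD libraries, with colours ending at -2 and 2. The Ugt2b and Ugt3a rows are red in nearly every limonin column, whereas the pi class rows Gstp1 and Gstp2 are blue in limonin 2 and paler in the others.

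The libraries had an implied depth of 15520000 to 19630000 fragments, and 9742 to 11087 genes reached 1 FPKM in each. Albumin, the main product of hepatocytes, stood at 14080 to 31230 FPKM in every library, and its gene Alb was itself called higher in limonin. That call was lost without MCD 1, MCD 2 or limonin 4 (adjusted p up to 0.0767, limma) and under quantile normalization (0.0714). FPKM summed over all genes was 464184 to 471623 in the MCD and 404050 to 462665 in the limonin libraries, so every limonin sum lay below every MCD sum. The balance of calls over all genes depended on scaling: of all calls, 27.9% were higher with FPKM as deposited, 57.4% under median-ratio scaling, 52.9% under quantile normalization and 49.6% at equal summed FPKM. Median-ratio scaling moved the median of all genes from -0.07 to 0.05, and with it 20 members were called higher and 0 lower, while 17.4% of all tested genes were called higher and 12.9% lower. Markers of cell types moved as well, beside 7.24% of all tested genes called higher and 18.7% lower with FPKM as deposited. Of 14 tested hepatocyte markers 5 rose and 0 fell, with a summed level of 37420 to 45820 FPKM in the MCD and 39210 to 58670 in the limonin libraries. Of 9 tested bile duct markers 8 fell (summed level 96.6 to 500 FPKM in MCD and 39.7 to 122 in limonin), of 14 macrophage markers 8 fell (266 to 971 and 173 to 287), and of 13 stellate cell markers 11 fell (118 to 215 and 75.4 to 104). Endothelial markers were mixed, with 1 of 10 higher, 2 lower and 7 not called. All 4 tested T, NK and B cell markers fell, of which 2 were called under median-ratio scaling. Of 4 tested gut and kidney markers 0 were called. No marker of these lists was at 0 in every library. In bulk tissue, fewer cells of a type and less RNA per cell cannot be told apart, and the part of these shifts in the values below was not tested.

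The 7 Ugt2b genes lie on chromosome 5 between 86889767 and 87424203 (GRCm38), a stretch that also holds Ugt2a3, and encode the enzymes that glucuronidate steroids, bile acids and many drugs. All 7 were tested and all 7 rose. Their median log2 fold change was 0.67, with a range of 0.50 to 1.3.

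Ugt2b5 was the most abundant member of the group. It stood at 161, 121, 133, 130 and 163 FPKM in MCD 1 to 5, and at 162 to 237 with a median of 214 in the limonin libraries. All limonin libraries but limonin 5 lay above every MCD library. The mean was 142 ± 19.3 FPKM (SD, n = 5) against 210 ± 28.3 (SD, n = 6), and the log2 fold change was 0.56 ± 0.12 (SE, adjusted p = 0.00657, limma).

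Ugt2b35 stood at 44.2, 32.0, 38.2, 38.6 and 44.8 FPKM in MCD 1 to 5 and at 52.5 to 78.4 with a median of 72.8 in the limonin libraries. The groups did not overlap, and limonin 5 was the lowest of its group. With a mean of 39.6 ± 5.24 FPKM in MCD and 70.4 ± 9.07 in limonin, the log2 fold change was 0.82 ± 0.12 (SE, adjusted p = 0.00137, limma).

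Ugt2b34 was likewise higher in 6 of 6 limonin libraries, at 51.8, 37.6, 39.3, 40.1 and 43.8 FPKM in MCD 1 to 5 and 52.3 to 98.9 with a median of 78.7 in limonin. Its log2 fold change was 0.80 ± 0.16 (SE, adjusted p = 0.00487, limma), although limonin 5 exceeded MCD 1 by little. Ugt2b38, a male-biased gene of mouse liver, showed the largest fold change among the Ugt2b genes. It was at 2.86, 1.78, 2.14, 2.21 and 3.68 FPKM in MCD 1 to 5 and at 4.16 to 12.98 with a median of 8.43 in limonin, again without overlap. The ratio of means was 3.20 and the log2 fold change 1.3 ± 0.25 (SE, adjusted p = 0.00398, limma).

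The other 3 Ugt2b genes rose with 1 limonin library inside the MCD range. Ugt2b36 went from 80.9 ± 9.40 to 115 ± 17.8 FPKM (log2 fold change 0.50 ± 0.12, adjusted p = 0.0112, limma), and limonin 2 lay within the MCD range. Ugt2b1 went from 32.8 ± 3.45 to 49.8 ± 10.7 FPKM (0.56 ± 0.15, adjusted p = 0.0167), and limonin 5 lay within it. Without MCD 2 the adjusted p of Ugt2b1 was 0.0522. Ugt2b37, a low gene, went from 1.38 ± 0.609 to 2.79 ± 0.788 FPKM (0.67 ± 0.18, adjusted p = 0.0178). MCD 2, at 2.43 FPKM, lay apart from the other MCD libraries, which were at 0.844 to 1.29, and limonin 2 was at 1.34.

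The summed FPKM of the 7 genes was 293 to 370 in the MCD and 414 to 602 in the limonin libraries, with means of 341 ± 31.1 and 533 ± 63.5. Limonin 5 had the lowest sum of its group, and the sums of the groups did not overlap. Coding transcripts of Ugt2b5 and Ugt2b38 have 30.4% and 28.0% of their 75-base stretches in common with another gene, mostly with each other, so part of their fragments could be assigned to either. Ugt2b35, Ugt2b36 and Ugt2b1 share no such stretch with another gene.

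Within each library, Ugt2b35 was set against Ugt2b5 to see whether the genes of the cluster moved by the same amount. Here and below, a log2 ratio within a library is the difference between the values of log2(FPKM + 1) of the pair. The log2 ratio of Ugt2b35 to Ugt2b5 was higher by 0.26 in limonin, and 6 of 6 limonin libraries exceeded every MCD library. The exact two-sided permutation test gave p = 0.00433, the smallest it can give, and an adjusted p of 0.0335 over 31 such comparisons, 1 for each tested member against the most abundant member of its family. This comparison was added after the data had been seen. For Ugt2b38 against Ugt2b5 the difference was 0.74 in the same direction, 5 of 6 limonin libraries exceeded every MCD library, and the adjusted p was 0.0537 (exact permutation test). As Ugt2b38 was at 1.78 to 3.68 FPKM in MCD, the added 1 makes this difference smaller than it is for FPKM alone.

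**Figure D2:**
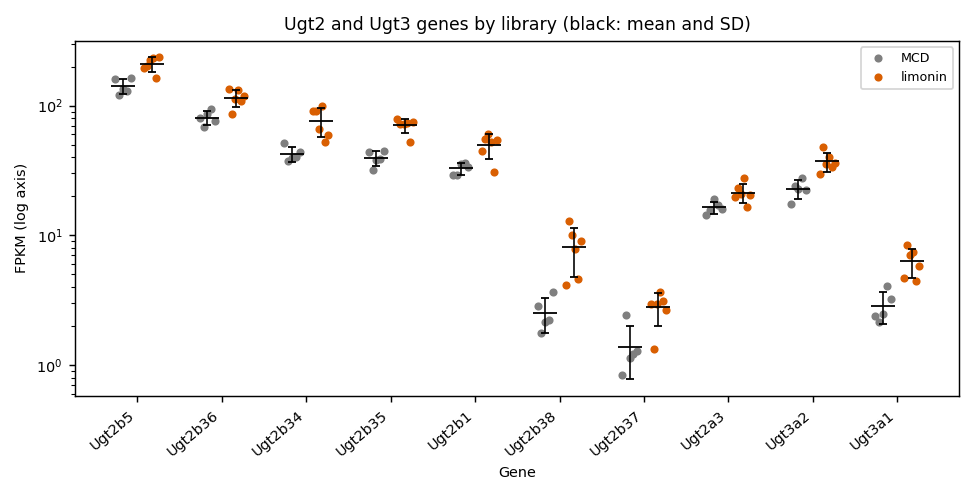
Points are FPKM of single libraries on a log axis for the 7 Ugt2b genes, Ugt2a3 and the 2 Ugt3a genes, grey for MCD (n = 5) and orange for limonin (n = 6), with black bars for the mean and SD. Orange points lie above all grey ones for Ugt2b35, Ugt2b34, Ugt2b38, Ugt3a1 and Ugt3a2, and in each of the other genes 1 orange point lies inside the grey range.

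Both Ugt3a genes rose. These enzymes lie on chromosome 15 and, unlike the other families, transfer sugars other than glucuronic acid. Ugt3a1 was at 2.41, 2.16, 2.46, 4.06 and 3.23 FPKM in MCD 1 to 5 and at 4.43 to 8.42 with a median of 6.39 in limonin, with no overlap (log2 fold change 0.91 ± 0.16, adjusted p = 0.00281, limma). Ugt3a2, the more abundant of the pair, was at 17.3, 24.2, 22.8, 27.5 and 22.3 FPKM in MCD 1 to 5. It was at 29.5 to 47.9 with a median of 36.0 in limonin, also with no overlap (0.68 ± 0.13, adjusted p = 0.00369). Limonin 2 was the highest library for both.

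Ugt2a3, the liver member of the Ugt2a family, went from 16.5 ± 1.72 to 21.3 ± 3.67 FPKM (log2 fold change 0.35 ± 0.12, adjusted p = 0.0438, limma), with limonin 5 inside the MCD range. The call was lost without any 1 of MCD 1, MCD 2, MCD 4, MCD 5, limonin 2, limonin 3, limonin 4 or limonin 6, with an adjusted p of up to 0.106.

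The 9 Ugt1a genes are 1 locus on chromosome 1, in which alternative first exons are joined to the same later exons. The 3 exons at positions 88215044 to 88215175, 88215795 to 88215882 and 88216138 to 88216357 (GRCm38) belong to all 9 genes. In the annotation used, an exon of 859 bases at 88138473 to 88139331 is listed for both Ugt1a6a and Ugt1a7c, and one of 127 bases for both Ugt1a6b and Ugt1a7c. The 88-base exon in the middle is printed because a fragment from it carries no information on which of the 9 genes it came from.

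Ugt1a common exon, chr1:88215795-88215882, plus strand: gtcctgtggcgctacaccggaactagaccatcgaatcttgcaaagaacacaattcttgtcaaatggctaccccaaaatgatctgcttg

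Between 57.7% of the 75-base stretches of the longest coding transcript of Ugt1a1 and 100.0% of those of Ugt1a6a are also found in another gene, so the division of the signal among Ugt1a genes is uncertain. The sum over the locus depends on that division only through the lengths of the transcripts. Summed Ugt1a FPKM was 227, 256, 320, 305 and 267 in MCD 1 to 5 and 290 to 421 in the limonin libraries, with means of 275 ± 37.6 and 365 ± 49.3. The ratio of means was 1.33, and limonin 1, at 290 FPKM, lay inside the MCD range.

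Of the 7 tested Ugt1a genes 1 was called. Ugt1a6a, whose enzyme conjugates small planar phenols, was at 27.0, 21.2, 21.4, 29.7 and 14.2 FPKM in MCD 1 to 5 and at 25.8 to 49.8 with a median of 42.9 in limonin. Limonin 3 alone lay inside the MCD range, and the log2 fold change was 0.80 ± 0.20 (SE, adjusted p = 0.0126, limma). As 100.0% of its 75-base stretches are also part of Ugt1a7c, its level is uncertain. Ugt1a1, the bilirubin enzyme and the most abundant Ugt1a gene, was at 88.6, 88.1, 251, 175 and 215 FPKM in MCD 1 to 5 and at 102 to 324 with a median of 164 in limonin. Its log2 fold change of 0.15 ± 0.35 was not called (adjusted p = 0.782), and the spread inside each group was wider than the difference between them. It was negative, at -0.04, without MCD 1, without MCD 2 or without limonin 3.

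The remaining 5 tested Ugt1a genes had log2 fold changes of -0.63 (Ugt1a2) to 1.24 (Ugt1a6b), with adjusted p-values of 0.0789 (Ugt1a5) and above. Single genes of the locus varied between libraries of 1 group far more than the sum. Ugt1a2 was at 0 FPKM in limonin 3 and limonin 5 and at 64.9 in limonin 2. Ugt1a6b was at 4.78 FPKM in MCD 1 and 39.9 in MCD 2, 2 libraries in which Ugt1a1 was nearly equal.

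**Figure D3:**
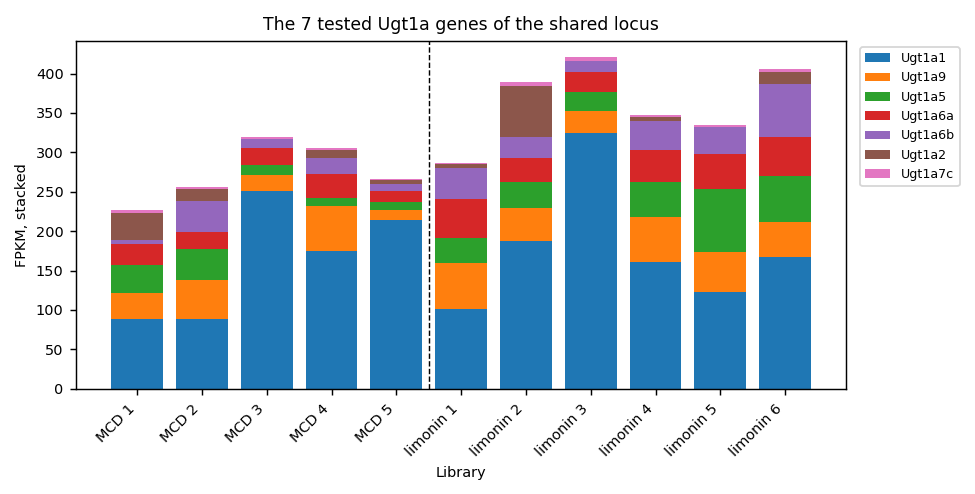
Stacked bars give the FPKM of the 7 tested Ugt1a genes in each library, 5 MCD to the left of the dashed line and 6 limonin to the right. With the 2 lowest genes of the locus, which are not drawn, the bars add up to 227 to 320 for MCD and 290 to 421 for limonin, while the share of Ugt1a1, the blue segment, changes from library to library within each group.

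Over all 20 Ugt genes the summed FPKM was 591 to 699 in the MCD and 803 to 1033 in the limonin libraries, means of 658 ± 46.4 and 963 ± 93.2, and the groups did not overlap. Beside this rise, 5 of 14 tested hepatocyte markers rose with a median log2 fold change of 0.27, against 0.67 for the Ugt genes, and whether the markers account for any of it was not tested.

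Among the glutathione transferases, 6 of 22 tested genes rose and 1 fell, and the 3 most abundant, Gstm1, Mgst1 and Gstp1, were not called. The summed FPKM of the 25 genes was 4844 to 6730 in the MCD and 3749 to 7277 in the limonin libraries, with means of 5832 ± 713 and 5744 ± 1245. Limonin 2 had the lowest sum of all 11 libraries and limonin 6 the highest. Gstm1, the main mu class enzyme, made up 45.2% of the Gst sum. It was at 2644, 3166, 2486, 1945 and 2334 FPKM in MCD 1 to 5 and at 1529 to 3729 with a median of 2662 in limonin, so the limonin range enclosed the MCD range. Its log2 fold change of 0.06 ± 0.20 was not called (adjusted p = 0.853, limma), and the sign changed when MCD 4, limonin 3 or limonin 6 was left out.

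The 7 mu class genes lie together on chromosome 3, and 2 of them rose. Gstm7 was at 24.6, 32.7, 28.7, 33.1 and 31.4 FPKM in MCD 1 to 5 and at 37.9 to 44.96 with a median of 43.4 in limonin, with no overlap (log2 fold change 0.48 ± 0.10, adjusted p = 0.00424, limma). Gstm4 was at 46.6, 45.4, 41.4, 42.7 and 46.0 FPKM in MCD 1 to 5. It was at 47.9 to 70.8 with a median of 61.9 in limonin, without overlap although limonin 4 came close to the MCD range (0.42 ± 0.10, adjusted p = 0.0106). Neither gene shares a 75-base stretch with another gene. The other 4, Gstm2, Gstm3, Gstm5 and Gstm6, had log2 fold changes of -0.39 to -0.01 and were not called. The sign for Gstm5 and Gstm6 was positive under median-ratio scaling and at equal summed FPKM, and for Gstm6 also under quantile normalization. Without MCD 4 the log2 fold change of Gstm2 was -0.51, and its adjusted p was 0.0389.

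Set against Gstm1 in the same library, Gstm2 was lower by 0.45 on the log2 scale in limonin, and all 6 limonin ratios were under the lowest MCD ratio (exact permutation p = 0.00433, adjusted p = 0.0335). Gstm4 and Gstm7 against Gstm1 were higher by 0.36 and 0.42, with an adjusted p of 0.291 for each (exact permutation test). The SD of these log2 ratios among limonin libraries was 0.44 for Gstm4 and 0.43 for Gstm7. Without MCD 4 the unadjusted exact permutation p was 0.0476 for Gstm4 (from 0.113, and also 0.0476 without limonin 6) and 0.0381 for Gstm7 (from 0.108).

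The pi class, on chromosome 19, held the 1 member that fell. Gstp2 was at 207, 216, 191, 157 and 163 FPKM in MCD 1 to 5 and at 57.5 to 164 with a median of 130 in limonin. Limonin 2 was the lowest, and 5 of 6 limonin libraries lay below every MCD library, limonin 5 being the exception. The log2 fold change was -0.65 ± 0.22 (SE, adjusted p = 0.0456, limma). It was -0.44 without limonin 2, and the call was lost when MCD 1, MCD 2, MCD 3, MCD 5, limonin 1, limonin 3 or limonin 4 was left out (adjusted p up to 0.114), as well as after median-ratio scaling (-0.49, adjusted p = 0.11) and at equal summed FPKM (-0.53, adjusted p = 0.0715).

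Gstp1, the main pi class gene, was at 765, 801, 717, 587 and 659 FPKM in MCD 1 to 5 and at 301 to 696 with a median of 599 in limonin. The log2 fold change was -0.38 ± 0.19 and not called (adjusted p = 0.155). Gstp3 had a log2 fold change of -0.15 and was not called. Gstp1 and Gstp2 share 57.7% and 59.6% of their 75-base stretches with each other, so the division between them is uncertain. As the table divides them, Gstp2 was lower against Gstp1 by 0.27 on the log2 scale in limonin, and all 6 limonin ratios were under the lowest MCD ratio (exact permutation p = 0.00433, adjusted p = 0.0335). The summed pi class was 792 to 1070 FPKM in the MCD and 387 to 906 in the limonin libraries, and the groups overlapped. In the same livers 8 of 9 tested bile duct markers and 8 of 14 tested macrophage markers fell, with the summed levels given above, and their part in the pi class values was not tested.

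Gstt3, of the theta class on chromosome 10, showed the largest rise among the tested Gst genes. It stood at 10.02, 8.30, 9.67, 9.97 and 9.11 FPKM in MCD 1 to 5 and at 12.7 to 24.8 with a median of 20.6 in limonin, with no overlap, and limonin 1 was the lowest of its group. The mean was 9.41 ± 0.722 FPKM against 19.9 ± 4.16, a ratio of 2.11 and a log2 fold change of 0.98 ± 0.14 (SE, adjusted p = 0.0012, limma). Gstt1, the most abundant theta gene, was at 107, 130, 134, 141 and 111 FPKM in MCD 1 to 5 and at 75.4 to 173 with a median of 132 in limonin. It was not called (0.03 ± 0.18, adjusted p = 0.919), nor was Gstt2 (-0.26, adjusted p = 0.182). The sign for Gstt1 was negative, at -0.06 to -0.01, without MCD 1, MCD 5, limonin 5 or limonin 6. In the same library, the log2 ratio of Gstt3 to Gstt1 was higher by 0.95 in limonin, in 6 of 6 libraries (exact permutation p = 0.00433, adjusted p = 0.0335). Of the 75-base stretches of the Gstt3 coding transcript, 25.0% are also part of the predicted gene Gm20441.

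**Figure D4:**
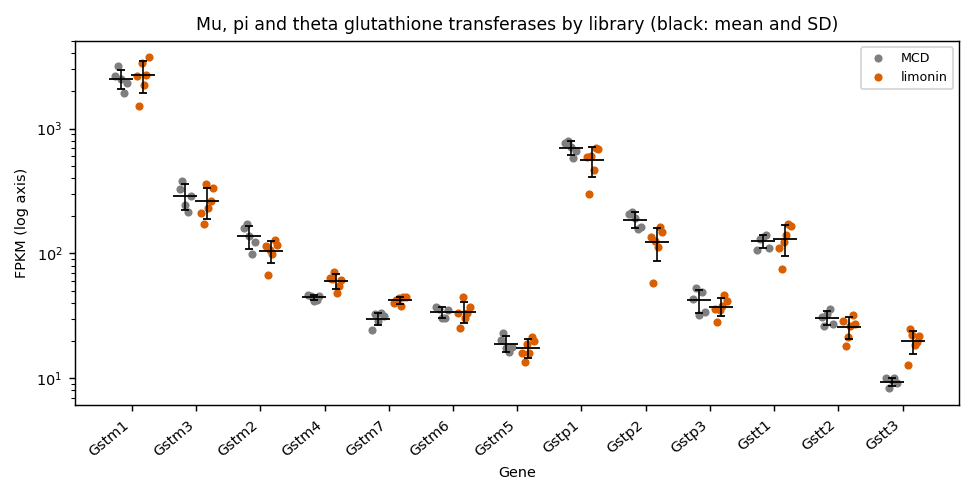
Points are FPKM of single libraries on a log axis for the mu, pi and theta class genes, grey for MCD (n = 5) and orange for limonin (n = 6), with black bars for the mean and SD. Gstt3, Gstm4 and Gstm7 have every orange point above the grey ones, whereas the abundant Gstm1 and Gstt1 have orange points on both sides of the grey range.

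Gstz1, the zeta class enzyme that isomerizes maleylacetoacetate in tyrosine breakdown, rose without overlap. It was at 71.3, 76.8, 94.1, 102 and 89.7 FPKM in MCD 1 to 5 and at 108 to 143 with a median of 119 in limonin (log2 fold change 0.48 ± 0.11, adjusted p = 0.00821, limma). Gsto1, an omega class enzyme, went from 43.0 ± 3.60 to 53.3 ± 4.46 FPKM (0.30 ± 0.09, adjusted p = 0.0266). MCD 5, at 49.3 FPKM, lay above the other MCD libraries and above limonin 4. The Gsto1 call was lost without MCD 1, MCD 2 or MCD 3, with an adjusted p of up to 0.0707.

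Of the 4 alpha class genes 1 rose. Gsta3 was at 116, 130, 163, 149 and 127 FPKM in MCD 1 to 5 and at 144 to 203 with a median of 173 in limonin, with limonin 2 inside the MCD range (log2 fold change 0.35 ± 0.11, adjusted p = 0.0375, limma). Its call was lost without MCD 1, MCD 2, MCD 5, limonin 3, limonin 4 or limonin 6, with an adjusted p of up to 0.0967. Gsta1 was the most variable of the class, at 30.0 to 165 FPKM in MCD and 15.5 to 73.3 in limonin, and was not called (-1.04 ± 0.47, adjusted p = 0.124). Without MCD 4, where it was lowest in its group, the log2 fold change was -1.37 and the adjusted p 0.0346. As 86.3% of its 75-base stretches occur in other genes, its level is uncertain. Gsta4, which clears the lipid peroxidation product 4-hydroxynonenal, had a log2 fold change of -0.33 (adjusted p = 0.23), and Gsta2 one of 0.04 (adjusted p = 0.899).

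Gstk1, of mitochondria and peroxisomes, and Mgst1, the abundant microsomal form, were not called. Mgst1 was at 1100, 990, 1033, 920 and 1024 FPKM in MCD 1 to 5 and at 794 to 1060 with a median of 1003 in limonin (log2 fold change -0.07 ± 0.10, adjusted p = 0.63, limma). Gstk1 went from 42.9 ± 7.17 to 45.7 ± 3.27 FPKM (0.10 ± 0.12, adjusted p = 0.535), with MCD 1 low at 30.7. Mgst3 was also not called (-0.18, adjusted p = 0.481). The antioxidant response element, the site of NRF2, was searched in the promoters by its core letters TGACNNNGC on both strands. These occur in 10.2% of the 32851 windows of 250 bases and in 4 of 50 members, namely Gsta3, Gstm5, Gstm7 and Mgst1, of which the first and the third rose. The share counts windows of the whole promoter set, whereas the members are counted as genes. Sites further than 250 bases before the start were not searched. The 4 sites are printed, from RefSeq (GRCm38.p6), because Gsta3 and Gstm7 are the called genes that hold the letters. Each line gives 29 bases on the strand of the gene, 5′ to 3′, with the matching letters in capitals.

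Gsta3, chr1:21240454-21240482, plus strand: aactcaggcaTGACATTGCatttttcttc
Gstm5, chr3:107895802-107895830, plus strand: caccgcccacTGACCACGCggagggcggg
Gstm7, chr3:107931725-107931753, minus strand: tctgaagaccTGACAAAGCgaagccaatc
Mgst1, chr6:138140461-138140489, plus strand: gcggggcttgGCACGGTCAggaggcgggg

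In Mgst1 the match is on the strand opposite to the gene, and in the other 3 on the strand of the gene. The matches begin 121 bases before the start in Gsta3, 42 in Gstm5, 129 in Gstm7 and 56 in Mgst1, counted from the RefSeq start. GENCODE M21, from which the gene positions are taken, begins Gstm7 and Mgst1 203 and 211 bases further upstream, so these 2 windows lie inside the genes as annotated there. A match of letters is a description of the promoter and says nothing of binding.

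Among the sulfotransferases, Sult1a1 rose. This phenol sulfotransferase made up 67.4% of the Sult sum and was at 187, 178, 213, 226 and 185 FPKM in MCD 1 to 5 and at 206 to 311 with a median of 280 in limonin. Limonin 2 alone lay inside the MCD range, and the log2 fold change was 0.42 ± 0.12 (SE, adjusted p = 0.022, limma). The call was lost without MCD 1, MCD 2 or MCD 5, with an adjusted p of up to 0.0671. The other 4 tested genes all had a positive log2 fold change and were not called. They were Sult1b1 (0.32, adjusted p = 0.0536), which conjugates thyroid hormone and phenols, Sult1d1 (0.39, adjusted p = 0.2), Sult1c2 (0.27, adjusted p = 0.297) and Sult1e1, the estrogen sulfotransferase (0.14, adjusted p = 0.696). The summed FPKM of all 10 Sult genes was 282 to 323 in the MCD and 315 to 491 in the limonin libraries, and limonin 2 lay inside the MCD range.

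**Figure D5:**
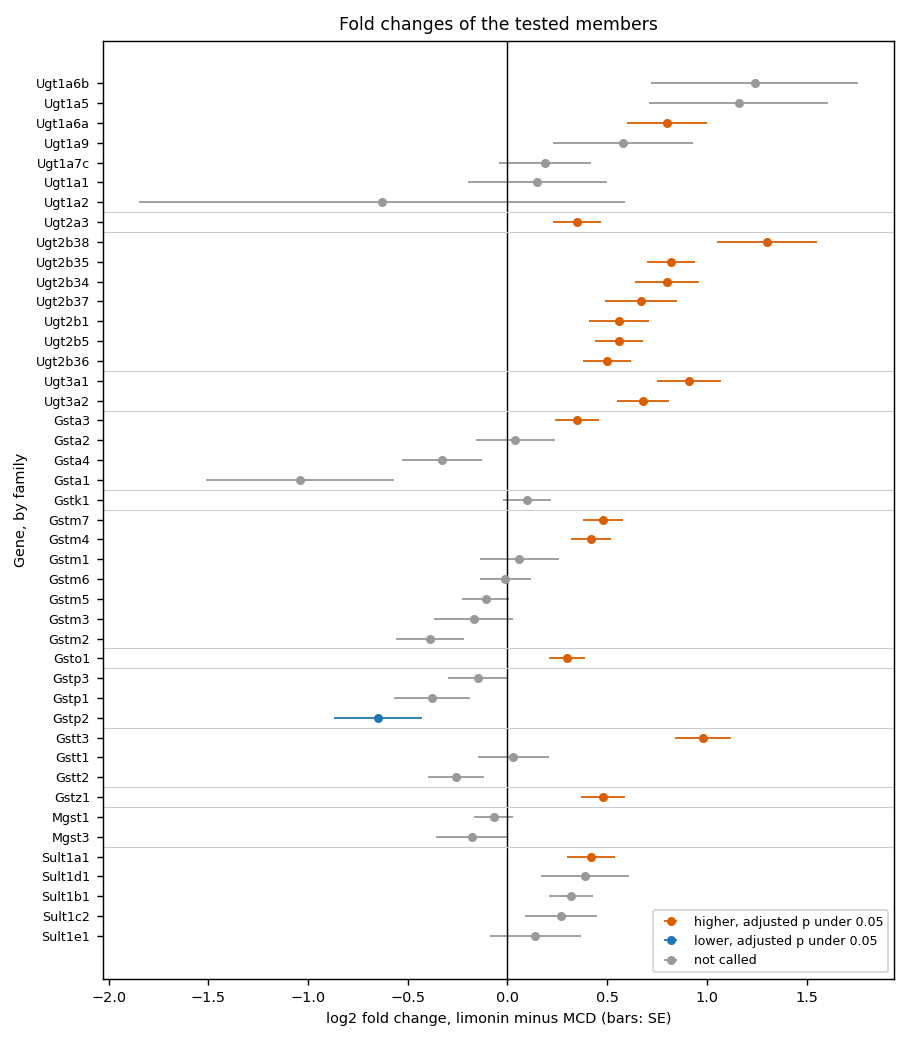
Points are log2 fold changes, limonin minus MCD, of the 44 tested genes on log2(FPKM + 1), with bars for the SE, coloured by whether the gene was called higher (18), lower (1) or not at all (25). All 7 Ugt2b points lie between 0.50 and 1.3, whereas the Gst points lie on both sides of 0.

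The genes that supply and carry the conjugated groups were read in the same fit. Beside the counts of this and the following lists, 7.24% of all tested genes were called higher and 18.7% lower. Under median-ratio scaling these shares were 17.4% and 12.9%. Of 8 tested genes for UDP-glucuronate supply and transport 2 rose and 0 fell (median 0.34), and 5 were called higher under median-ratio scaling. Pgm1, a phosphoglucomutase, rose from 54.3 ± 5.15 to 81.4 ± 19.4 FPKM (log2 fold change 0.55 ± 0.15, adjusted p = 0.0175, limma; 0.0544 without MCD 2). Slc35d2, a nucleotide sugar transporter, rose by 0.39 ± 0.12 (adjusted p = 0.0246), and its call was lost without MCD 1, MCD 2 or limonin 4 (up to 0.0704). Ugdh, which oxidizes UDP-glucose to UDP-glucuronate, had a log2 fold change of 0.41 ± 0.17 and an adjusted p of 0.0806, which fell to 0.0407 without MCD 1 and 0.0357 without limonin 5.

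Of 16 tested genes of glutathione synthesis and turnover 2 rose and 2 fell (median -0.02), and under median-ratio scaling 4 were called higher and 1 lower (median 0.10). Gpx4, the glutathione peroxidase that reduces lipid peroxides, was at 576, 621, 552, 479 and 543 FPKM in MCD 1 to 5 and at 241 to 421 with a median of 387 in limonin, with no overlap (-0.62 ± 0.14, adjusted p = 0.00827, limma). Lap3, a leucine aminopeptidase, rose by 0.51 ± 0.12 (adjusted p = 0.00827). The calls of Cbs (0.44) and Dpep1 (-0.54) were lost in 6 and 8 of the 11 fits that left out 1 library, with an adjusted p of up to 0.0893 and 0.0995.

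For sulfate activation and handling, 0 of 9 tested genes rose and 1 fell (median 0.16), and 5 of the 9 had an unadjusted p under 0.05. Papss1, which makes PAPS, fell from 5.75 ± 0.640 to 4.00 ± 0.481 FPKM, all 6 limonin libraries being under the lowest MCD library (-0.43 ± 0.10, adjusted p = 0.00827, limma). Arsb, the lysosomal arylsulfatase B, was at 2.62 to 2.89 FPKM in MCD and 2.93 to 4.92 in limonin, with no overlap, and missed the threshold (0.31, adjusted p = 0.0706). Bpnt1 (0.41, adjusted p = 0.0529) and Suox, the sulfite oxidase (0.39, adjusted p = 0.087), missed it too. Under median-ratio scaling 4 genes of the list were called higher, among them Arsb (adjusted p = 0.0149), Bpnt1 (0.0157) and Suox (0.0434). Quantile normalization called 2 higher and equal summed FPKM 3. Without limonin 5 the adjusted p was 0.0377 for Arsb and 0.0124 for Bpnt1. Of 4 tested sulfotransferases outside the symbol rule 1 rose and 1 fell. Sult2a2, a hydroxysteroid and bile acid sulfotransferase, was at 23.3, 26.2, 3.91, 7.44 and 28.8 FPKM in MCD 1 to 5 and at 0.484 to 2.97 in limonin, with no overlap (-2.86 ± 0.49, adjusted p = 0.00374). The call of Sult2a7 (0.72, adjusted p = 0.0488) was lost in 8 of the 11 fits that left out 1 library, with an adjusted p of up to 0.115. Sult2a1, Sult2a5 and Sult2b1 were under the filter and not tested. In each of them every limonin library lay below every MCD library, at levels of up to 1.65 FPKM. In Sult2a4, Sult2a6, Sult6b1 and Sult6b2, also not tested, the groups overlapped.

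Of 7 tested conjugate exporters, Abcc2, the canalicular pump for glucuronides and glutathione conjugates, rose from 46.9 ± 6.57 to 61.3 ± 7.47 FPKM (log2 fold change 0.38 ± 0.11, adjusted p = 0.0249, limma). The pump gene Abcc5 fell (-0.46 ± 0.13, adjusted p = 0.0227). The Abcc2 call was lost without MCD 2, MCD 3, MCD 4, MCD 5 or limonin 4 (up to 0.0602), and that of Abcc5 without MCD 1, MCD 2 or MCD 5 (up to 0.0695). Of 11 other tested conjugating enzymes, among them methyl- and acyltransferases, 0 were called by limma, 3 had an unadjusted p under 0.05 and 4 had a q under 0.05 in the authors' deposited table. The 4 with the smallest p, Baat, Tpmt, As3mt and Nnmt, had adjusted p-values of 0.0787 to 0.136. The count of 0 depended on the scaling. Median-ratio scaling and quantile normalization each called 3 of the 11 higher, namely Baat, Tpmt and As3mt, and equal summed FPKM called 2, Baat and Tpmt. Under median-ratio scaling their adjusted p-values were 0.0228, 0.0228 and 0.0233.

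Of 18 tested transcription factors of these enzymes 2 rose and 2 fell (median -0.02), and under median-ratio scaling 5 were called higher and 1 lower (median 0.11). Over all tested genes 25.9% were called, 7.24% higher and 18.7% lower, and under median-ratio scaling 17.4% higher and 12.9% lower. Foxa3 fell from 16.6 ± 2.23 to 10.98 ± 2.20 FPKM (-0.56 ± 0.13, adjusted p = 0.0092, limma). Ppara, the fatty acid receptor, rose from 4.48 ± 0.591 to 8.77 ± 4.14 FPKM (0.75 ± 0.21, adjusted p = 0.0219; 0.0526 without MCD 2), and limonin 2 was highest at 16.8. Hnf4a rose (0.45 ± 0.14, adjusted p = 0.0344), and its call was lost in 7 of the 11 fits that left out 1 library (up to 0.0732). Cebpb fell (-0.41 ± 0.12, adjusted p = 0.0238), and its call was lost without MCD 2, MCD 4 or limonin 4 (up to 0.0578) and after median-ratio scaling (0.175). The genes of 4 classical inducer receptors and factors were not called: Nfe2l2 (NRF2, -0.09), Nr1i2 (PXR, -0.08), Nr1i3 (CAR, -0.33) and Ahr (0.33). Ahr was at 1.92 to 2.64 FPKM in MCD and 1.59 to 5.18 in limonin, with 3 limonin libraries above and 2 below every MCD library. Its adjusted p was 0.0286 (limma) without limonin 5 and 6, a fit added after the data had been seen. The sign for Nfe2l2 and Nr1i2 was positive under median-ratio scaling (0.05 and 0.07) and at equal summed FPKM (0.03 for both). They were named after their values had been seen, and a transcript level does not measure the activity of the factor.

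Of 24 tested phase I and marker targets of those factors, 5 rose and 2 fell (median 0.13). Over all tested genes 7.24% were called higher and 18.7% lower. Under median-ratio scaling 6 of the list were called higher and 2 lower, beside 17.4% and 12.9% over all tested genes. Cyp2c29, a CAR target, rose from 58.5 ± 17.8 to 132 ± 27.2 FPKM in 6 of 6 limonin libraries (log2 fold change 1.19 ± 0.20, adjusted p = 0.0027, limma). Aldh1a1, the retinal dehydrogenase, rose by 0.69 ± 0.15 (adjusted p = 0.00729). Cyp3a13 (1.07, adjusted p = 0.0148, limma), Cyp2b9 (0.61, 0.0404) and Aldh1a7 (0.44, 0.0345) also rose. The Cyp2b9 call was lost in 8 of the fits that left out 1 library, with an adjusted p of up to 0.112. Hmox1, the heme oxygenase gene under NRF2, which macrophages also express, fell from 45.7 ± 20.4 to 19.0 ± 2.15 FPKM with no overlap (-1.13 ± 0.23, adjusted p = 0.00533), and Akr1b8, an aldose reductase relative, fell with no overlap (-0.77 ± 0.15, adjusted p = 0.0041). In the same livers 8 of 14 tested macrophage markers fell, and their part in the Hmox1 value was not tested. The other 17 genes of the list were not called. Among them were Cyp2b10 (0.39, adjusted p = 0.219, limma), Cyp3a11 (0.06, 0.788), Cyp1a1 (0.13, 0.449) and Nqo1 (-0.22, 0.422).

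As some Ugt and Gst genes differ between the sexes in mouse liver, sex-biased genes were read too. Of 11 tested female-biased genes 3 rose, and of 12 tested male-biased genes 5 rose, Ugt2b38 among them, with 0 lower in both lists and medians of 0.60 and 0.62. Under median-ratio scaling 5 and 7 were called higher. The shares called higher over all tested genes were 7.24% and, under median-ratio scaling, 17.4%. Cyp7b1, a male-biased oxysterol hydroxylase, rose in 6 of 6 limonin libraries (0.70 ± 0.14, adjusted p = 0.004, limma).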

How the data were processed

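Poly(A) RNA with an integrity number above 7 was made into strand-marked libraries, per the labels' protocols. The submitters' processing notes name the tools cutadapt (1.9), HISAT2 (2.0.4) and StringTie (1.3.4d). They name GRCh38 as the build, which is human, while the gene identifiers are from mouse. The authors deposited FPKM for every gene and library, per the file headers. Beside these the table lists a fold change (the ratio of the group means) and its log2, both by the authors per the file headers. A p-value and a q-value by the authors are also listed. Neither their test nor whether the strand was used in quantification was given in the sources used here. All per-sample columns were mapped to samples, with 0 left over.

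FPKM hold no fragment numbers, so no count model and no counting interval is given. The implied depth takes the commonest small value of FPKM times transcript length to be 1 fragment. A gene was tested if 5 or more libraries had 1 FPKM or more, which left 10489 of 31280 genes. The test was limma (version 3.58.1, R 4.3.3) on log2(FPKM + 1), two-sided, with trend and robust settings, Benjamini-Hochberg adjustment and a threshold of 0.05. The procedure was tested on simulated data. Log2 ratios within a library were differences of log2(FPKM + 1) and were compared by exact two-sided permutation over libraries. Sums over families are a description with no test. Coordinates and shared exons are from GENCODE M21 (GRCm38), in which all 55 genes were found. Shared sequence is the share of 75-base stretches of the longest coding transcript that occur in a transcript of another gene. Promoters are from RefSeq (GRCm38.p6), with an entry for 50 of the 55.

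The members and lists were chosen with earlier results of these data known. The genes named are, in each family, every called member and the most abundant one, and from each other list up to 4 with the smallest p. Others that are named (Gsta1, Gsta2, Gsta4, Gstm2, Gstm3, Gsto2, Gstp3, Gstt2, Gstt4, Mgst2, Mgst3, Sult4a1, the other Ugt1a and Sult1 genes, the untested sulfotransferases outside the symbol rule, the receptors, Aldh1a7, Cyp1a1, Cyp2b9, Cyp2b10, Cyp3a11, Cyp3a13 and Nqo1) were chosen after their values had been seen. The alternatives tried were a filter at 5 FPKM or none, pseudocounts of 0.1 and 0.01, 3 other scalings, no trend, a block on the replicate number, leaving out each library, the authors' deposited q, and the Ugt1a genes left out. Leaving out limonin 5 and 6, or MCD 4 and 5, was added after seeing the data.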

Additional observations from a re-analysis of the deposited data

Results flagged for a closer look

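In 4 of 50 groups of values (25 named genes in 2 groups of libraries), 1 library lay far from the rest, with a gap to its nearest neighbour that made up most of the range of the group. Chance gives such a gap in about 1 in 20 groups. Ugt2b35 was at 52.5 FPKM in limonin 5, while the next limonin library was at 71.6. Ugt2b37 was at 2.43 FPKM in MCD 2, while the next MCD library was at 1.29. Gsto1 was at 49.3 FPKM in MCD 5, with the next at 42.4. Gstk1 was at 30.7 FPKM in MCD 1, with the next at 43.5.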

How the results depend on the processing

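The count of members called higher was 18. It was 12 with no filter and 15 at 5 FPKM, where Ugt2b37, Ugt2b38 and Ugt3a1 were not tested. It was 18 at either other pseudocount and without the trend, 20 under median-ratio scaling, 19 under quantile normalization and 19 at equal summed FPKM. By the authors' deposited q it was 19 among the 44 tested members. Gsto2, Gstt4 and Ugt1a10, under the filter, also had a deposited q under 0.05 and are not in that count. The count was 17 without the Ugt1a genes, 16 without limonin 5 and 6, 15 without MCD 4 and 5, and 14 to 19 when 1 library was left out. With the replicate block it was 10 (Ugt 7, Gst 3, Sult 0, lower 0). In that fit limonin 6, which has no MCD library of its number, added nothing to the comparison. The labels do not say whether the replicate numbers pair the libraries. Same-numbered libraries correlated at -0.235 to 0.204 in their deviations from the group means, and 1 of 5 numbers correlated best with its own. So few values cannot show whether same-numbered libraries shared a batch. The count called lower, 1, was 0 with no filter, after median-ratio scaling, at equal summed FPKM and by the deposited q. It was 0 to 3 when 1 library was left out, with 3 without MCD 4 (Gstp2, Gsta1 and Gstm2). The count of Sult genes called higher, 1, was 0 with no filter, 2 under median-ratio or quantile scaling, 2 at equal summed FPKM, 2 by the deposited q, and 0 to 2 when 1 library was left out (0 without MCD 1, MCD 2 or MCD 5, and 2 without MCD 4, limonin 3 or limonin 5). Of the 19 called genes, 9 were called under every alternative in which they were tested. Among these 9, Ugt3a1 was not tested at 5 FPKM and Ugt1a6a was left out with the Ugt1a genes. No called member changed sign in these fits. Among the members not called and the family sums, signs changed for Gstm1 (-0.04 with the block, -0.08 without limonin 5 and 6, -0.09 without MCD 4 and 5, and -0.04 to 0.21 when 1 library was left out), Gstt1 (-0.04 with the block, -0.18 without limonin 5 and 6, and -0.06 to 0.18), Ugt1a1 (-0.04 to 0.33), Gstk1 (-0.01 to 0.15), Mgst1 (0.08 after median-ratio scaling and 0.05 at equal summed FPKM), and the log2 ratios of summed FPKM of Gsta (0.09 and 0.04 in that order) and Mgst (0.08 and 0.04). They also changed for the members Gsta2, Gstm5, Gstm6 and Sult1e1 and, among the genes of the other lists named by the rule or as receptors, for Nfe2l2, Nr1i2 and Sult2a3, none of them called. The cause of these shifts was not tested.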
